A study of Mus musculus with 8 samples.

Results

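Kruppel-like factors were examined in the gene counts of transferred CD4 T cells, as the 10 listed family members that the table holds (Klf2, Klf3, Klf4, Klf6, Klf7, Klf9, Klf10, Klf11, Klf12 and Klf13) of 11354 genes in all. The rule was the gene symbol together with a given list of members. The symbol pattern alone matched 12 rows, and the other 2, Klf8 and Klf16, are described beside the listed members without being counted among them. Poly(A) RNA was sequenced from 4 libraries of Nlrp6-/- CD4 T cells and 4 libraries of wild-type CD4 T cells, all on a Black6 background and all moved into RAG-/- hosts, which lack T and B cells of their own. Hosts carry the numbers 1, 2, 4 and 5 under both labels, so the libraries are called KO 1, KO 2, KO 4 and KO 5 and WT 1, WT 2, WT 4 and WT 5. The labels give no age, sex or time after transfer and do not describe the targeted allele, and they disagree on tissue: the source is given as host spleen, the protocol as colonic lamina propria. The labels do not state whether 1 donor served several hosts, so every p-value speaks only of library-to-library spread, which may be technical.

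Kruppel-like factors are transcription factors with a conserved set of zinc fingers at their carboxyl end that bind CACCC boxes and related GC-rich DNA. They fall into a branch known mainly for activation (KLF2, KLF4, KLF6 and KLF7), a branch that represses through the corepressor CtBP (KLF3, KLF8 and KLF12) and a branch that recruits SIN3 corepressors (KLF9, KLF10, KLF11, KLF13 and KLF16). In T cells the family is best known through KLF2, which holds naive and memory cells in quiescence and keeps up the receptors that let them recirculate.

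Nlrp6 went against the labels. It had 487, 329, 477 and 648 counts in the libraries labelled knock-out, against 5, 3, 3 and 8 counts in the libraries labelled wild type, with hosts in the order 1, 2, 4 and 5. Directions are therefore given for libraries labelled KO and libraries labelled WT, not for genotypes. Library totals ranged from 35198192 to 39325381 counts under the KO label and from 38003997 to 40310721 under the WT label. All 15 T cell identity genes looked at were present. Of these, 0 were called higher and 2 lower, beside 6.20% and 3.84% of all genes. Their summed level in CPM (the count scaled to a library of fixed size with TMM factors) was 10978 ± 256 in the libraries labelled KO. In those labelled WT it was 11658 ± 634 CPM (SD, n = 4 each). Myeloid markers were also present, 19 of 20 looked up. Of the 19, 18 were called higher, beside 6.20% of all genes, and none was at 0 in any library. All genes of the table pass edgeR's expression filter, which a marker can pass through the libraries labelled KO alone. Ms4a7 and Clec4a3, for example, averaged 0.233 and 0.266 CPM under the WT label. The number called higher therefore depends in part on which markers the table holds. Their summed level ranged from 302 to 952 CPM in the libraries labelled KO and from 50.2 to 87.9 CPM in those labelled WT (two-sided exact permutation p = 0.0286, the smallest that 70 assignments allow, adjusted over 10 marker lists p = 0.0714). In such bulk RNA, fewer cells of a type and less RNA per cell cannot be told apart.

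The starts of the 3 listed genes that were called, and of Klf2, are shown because the family is known to bind CACCC boxes in promoters of its own members and because Klf2 and Klf4 are textbook targets of MEF2 and forkhead factors. Each run is the 250 bases before a RefSeq start site (GRCm38.p6), 5′ to 3′ on the gene's strand. Capitals mark CACCC or its reverse complement GGGTG in Klf3 and Klf12, TGTTTA (a forkhead core) in Klf4, and an A/T-rich site of MEF2 type (CTA and TAG with any 4 bases between) in Klf2. The Klf12 start lies inside the annotated gene, which has other starts not shown.
Klf3 (chr5:64803271-64803520, plus strand): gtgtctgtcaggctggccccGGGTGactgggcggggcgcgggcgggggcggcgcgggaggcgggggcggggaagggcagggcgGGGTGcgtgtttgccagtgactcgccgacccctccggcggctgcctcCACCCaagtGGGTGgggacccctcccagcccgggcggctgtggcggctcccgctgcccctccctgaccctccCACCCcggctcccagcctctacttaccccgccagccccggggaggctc
Klf4 (chr4:55532476-55532725, minus strand): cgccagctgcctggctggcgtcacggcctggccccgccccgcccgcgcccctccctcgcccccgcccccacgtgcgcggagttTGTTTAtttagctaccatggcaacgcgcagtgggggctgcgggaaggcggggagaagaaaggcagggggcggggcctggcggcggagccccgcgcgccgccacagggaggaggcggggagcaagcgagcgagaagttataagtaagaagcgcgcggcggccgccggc
Klf12 (chr14:100149797-100150046, minus strand): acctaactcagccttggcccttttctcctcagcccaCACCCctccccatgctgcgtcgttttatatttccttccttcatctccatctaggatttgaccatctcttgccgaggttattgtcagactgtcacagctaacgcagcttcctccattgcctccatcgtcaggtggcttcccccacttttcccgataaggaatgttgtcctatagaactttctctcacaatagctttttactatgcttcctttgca
Klf2 (chr8:72318812-72319061, plus strand): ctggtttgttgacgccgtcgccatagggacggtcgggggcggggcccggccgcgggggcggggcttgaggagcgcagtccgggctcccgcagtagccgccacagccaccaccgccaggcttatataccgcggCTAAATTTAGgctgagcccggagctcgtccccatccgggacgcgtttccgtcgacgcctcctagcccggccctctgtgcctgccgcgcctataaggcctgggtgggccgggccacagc
The Klf3 window held 5 CACCC matches and 6 matches to the GC box GGGCGG on either strand, one of each sharing a base. The Klf4 window held 0 CACCC matches, 4 GC boxes, of which a pair share a base, and 1 TGTTTA. The Klf12 window held 1 CACCC match and 0 GC boxes, and the Klf2 window 1 CACCC match, 2 GC boxes and the site CTAAATTTAG, which begins 118 bases before the start. Of all 32851 promoter windows of that length, 52.0% held CACCC, 32.7% GGGCGG, 12.0% TGTTTA and 3.20% the MEF2-type site, all on either strand, so CACCC and the GC box are common letters in such windows. These are matches of letters and not evidence of binding.

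Of the 10 listed factors, Klf4 and Klf3 were higher and Klf12 was lower in the libraries labelled KO than in those labelled WT, and the remaining 7 did not pass the test. The test was edgeR's quasi-likelihood test over all 11354 genes with Benjamini-Hochberg adjusted p below 0.05 as the threshold. That threshold was passed by 10.04% of all genes, 6.20% as higher and 3.84% as lower. The members' median log2 fold change was 0.06 and their median absolute value 0.15, beside -0.0026 and 0.089 over all genes tested. At an unadjusted p below 0.05 there were 4 listed members, beside 23.5% of all genes. CPM did not overlap between the labels for 2 of the 10, Klf4 and Klf12, as for 16.0% of all genes.

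**Figure D1:**
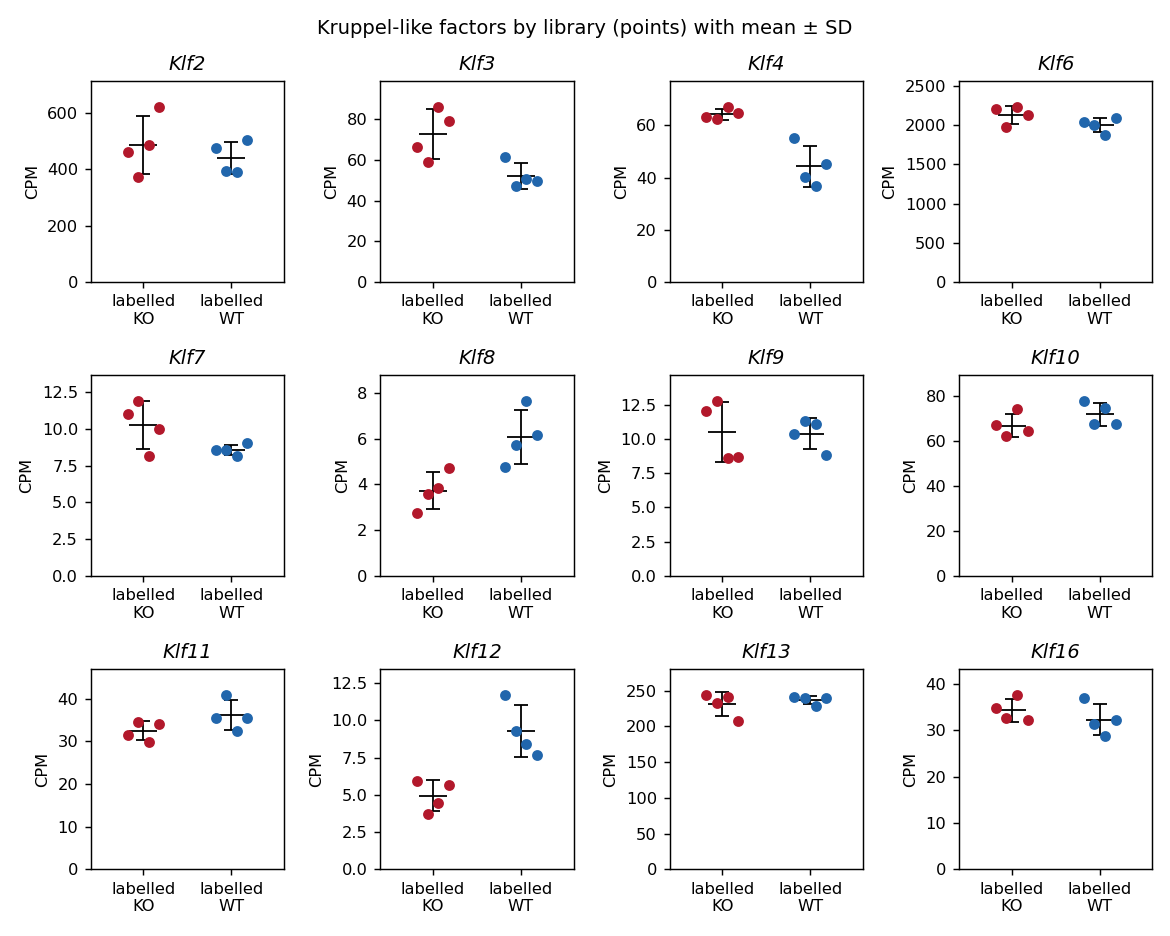
CPM of each Kruppel-like factor (vertical axes from 0) in the 4 libraries labelled KO (left, red points) and the 4 labelled WT (right, blue points), hosts 1, 2, 4 and 5 from left to right, with mean and SD as black bars. Klf4 lay between 62.3 and 67.0 CPM under the KO label and between 36.8 and 55.0 CPM under the WT label, while Klf12 and Klf8 lay lower in every library labelled KO than in any labelled WT.

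Among the factors of the activating branch, Klf4 changed and Klf2, Klf6 and Klf7 did not pass. Klf4 (Entrez 16600, chromosome 4, 55527137 to 55532475, GRCm38) encodes a factor known for cell-cycle exit in T cells, for monocyte differentiation and for epithelial identity. Its level was 63.0, 62.3, 67.0 and 64.8 CPM in KO 1, KO 2, KO 4 and KO 5, against 55.0, 40.2, 36.8 and 45.2 CPM in WT 1, WT 2, WT 4 and WT 5. The labels did not overlap, the libraries labelled KO were close together, and WT 1 was nearest to them. The means were 64.3 ± 2.08 and 44.3 ± 7.94 CPM (SD, n = 4 each), 1.45-fold apart, and the log2 fold change was 0.54 ± 0.11 (SE, edgeR adjusted p = 0.0122).

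Klf2 (chromosome 8, 72319062 to 72321654), the quiescence and trafficking factor, was at 462, 374, 487 and 620.4 CPM in the libraries labelled KO, against 474, 392, 390.0 and 503 CPM in those labelled WT. The labels overlapped, with KO 2 below every other library and KO 5 above them. The log2 fold change of Klf2 was 0.14 with a 95% interval from -0.18 to 0.47 (edgeR adjusted p = 0.636). This interval overlapped that of Klf4 (0.29 to 0.78), and the difference between the 2 genes was not tested. Klf6 (chromosome 13, 5861489 to 5870393), an early-response factor with broad expression, was at 2202, 1975, 2229.8 and 2135 CPM in the libraries labelled KO, against 2041, 2004, 1875 and 2089 CPM in those labelled WT. These ranges overlapped and the fold change was 0.09 on the log2 scale (interval -0.03 to 0.22, adjusted p = 0.355). Klf7 (chromosome 1, 64029448 to 64122345), known from neurons and early lymphocytes, was at 11.0, 11.9, 8.15 and 9.98 CPM in the libraries labelled KO, against 8.54, 8.53, 8.15 and 9.03 CPM in those labelled WT. In 3 of the 4 libraries labelled KO Klf7 was above every library labelled WT, and KO 4 was level with WT 4. Its log2 fold change was 0.26 (interval 0.00091 to 0.52, adjusted p = 0.211). Leaving out 1 library at a time, Klf7 passed in 1 of 8 fits, without KO 4 (0.35, edgeR adjusted p = 0.0373). Adjusted p reached 0.445 without KO 2.

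The CtBP-binding branch held changes in both directions. Klf3 (Entrez 16599, chromosome 5, 64803521 to 64832901), a repressor also known as basic Kruppel-like factor, was at 66.5, 58.8, 86.0 and 79.2 CPM in KO 1, KO 2, KO 4 and KO 5, against 61.6, 47.1, 50.8 and 49.6 CPM in WT 1, WT 2, WT 4 and WT 5. KO 2 fell below WT 1, so the labels overlapped, and KO 4 and KO 5 were the highest. The means were 72.6 ± 12.3 and 52.3 ± 6.39 CPM (SD, n = 4 each), and the log2 fold change was 0.47 ± 0.12 (SE, edgeR adjusted p = 0.0421). The call was close to the threshold: leaving out 1 library at a time kept it in 2 of 8 fits (without KO 2 and without WT 1), and adjusted p reached 0.110 without WT 2.

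Klf12 (Entrez 16597, chromosome 14, 99866181 to 100285891), a repressor first described as one of the AP-2 alpha gene, was a rare transcript in all libraries. It had 229, 147, 152 and 225 counts in KO 1, KO 2, KO 4 and KO 5, against 478, 365, 332 and 293 counts in WT 1, WT 2, WT 4 and WT 5. In CPM these were 5.92, 3.74, 4.46 and 5.67 in the libraries labelled KO, against 11.7, 9.30, 8.40 and 7.65 in those labelled WT. Every library labelled KO was below every library labelled WT. The means were 4.95 ± 1.03 and 9.26 ± 1.76 CPM (SD, n = 4 each), and the log2 fold change was -0.90 ± 0.18 (SE, edgeR adjusted p = 0.0110).

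Klf8, the remaining repressor of the CtBP branch, lies on the X chromosome (153225339 to 153398925) and, like Klf12, was called lower, though it is not among the listed members. It had 106, 140, 131 and 187 counts in the libraries labelled KO, against 195, 225, 303 and 236 counts in those labelled WT, with no overlap in CPM. The log2 fold change was -0.71 ± 0.19 (SE, edgeR adjusted p = 0.0481), and leaving out 1 library at a time kept it in 2 of 8 fits (without KO 5 and without WT 1), with adjusted p up to 0.121 without WT 4. The corepressor genes did not pass the test. Ctbp1, whose product these 3 factors bind, was at 203 and 211 CPM in libraries labelled KO and WT (log2 fold change -0.06, adjusted p = 0.370), and Ctbp2 was rare at 1.86 and 1.45 CPM (0.35, adjusted p = 0.630).

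**Figure D2:**
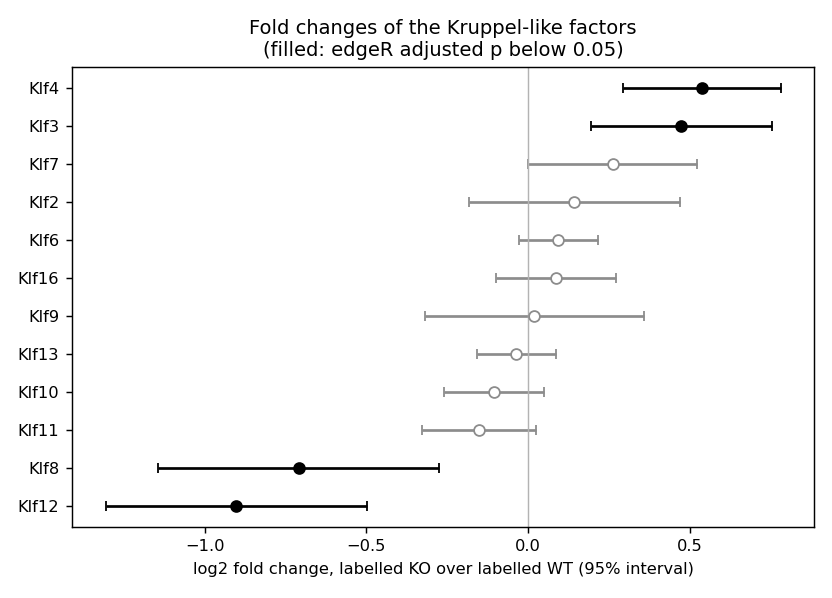
Log2 fold changes of libraries labelled KO over libraries labelled WT (horizontal axis) with 95% intervals, sorted from the highest at the top. Filled points passed edgeR's test at an adjusted p below 0.05: Klf4 (0.54) and Klf3 (0.47) above 0, Klf8 (-0.71) and Klf12 (-0.90) below 0.

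None of the listed factors of the SIN3-binding branch (Klf9, Klf10, Klf11 and Klf13) passed edgeR's test, and none did at an unadjusted p below 0.05, by DESeq2 or by limma-voom. Klf10 (chromosome 15, 38291464 to 38300711), the TGF-beta inducible early gene, was at 67.0, 62.0, 74.1 and 64.3 CPM in the libraries labelled KO, against 77.8, 67.7, 74.6 and 67.7 CPM in those labelled WT. KO 4 lay within the WT range and the other libraries labelled KO below it. Its log2 fold change was -0.11 (interval -0.26 to 0.05, adjusted p = 0.410). Klf11 (chromosome 12, 24651371 to 24662782), its closest relative and also linked to TGF-beta, was at 31.4, 34.6, 29.9 and 33.9 CPM in the libraries labelled KO, against 35.4, 40.9, 32.5 and 35.6 CPM in those labelled WT. The ranges overlapped and the fold change was -0.15 on the log2 scale (interval -0.33 to 0.02, adjusted p = 0.286).

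Klf13 (chromosome 7, 63886351 to 63938915), known in human T cells as an activator of CCL5, was at 244, 232, 241 and 207 CPM in the libraries labelled KO, against 240.4, 239, 228 and 240.1 CPM in those labelled WT. KO 5 was the lowest of the 8 libraries. The interval of the log2 fold change, -0.16 to 0.09 around -0.04, was among the narrowest of the family (adjusted p = 0.768). Klf9 (chromosome 19, 23141226 to 23168129), which glucocorticoids and thyroid hormone induce, was at 12.1, 12.8, 8.59 and 8.70 CPM in the libraries labelled KO, against 10.4, 11.3, 11.1 and 8.82 CPM in those labelled WT. KO 1 and KO 2 were above the WT range and KO 4 and KO 5 below it, so the mean difference was small (log2 fold change 0.02) and its interval wide (-0.32 to 0.36, adjusted p = 0.966). KO 4 and KO 5 also differ from the others in a library code described below. With that code as a term the log2 fold change of Klf9 was 0.26 (edgeR adjusted p = 0.293). The unlisted Klf16 was at 32.3 to 37.6 CPM in the libraries labelled KO and at 28.7 to 36.8 CPM in those labelled WT (0.09, adjusted p = 0.609).

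Levels of different genes were compared as CPM per kilobase of the deposited gene length. Klf6 was first and Klf2 next under both labels. Klf6 was at 506 ± 27.1 CPM per kilobase in the libraries labelled KO and 475 ± 21.8 in those labelled WT, and Klf2 at 267 ± 56.2 and 242 ± 31.7 (SD, n = 4 each). Averaged over the 8 libraries, Klf6 ranked 77 and Klf2 ranked 200 among the 11354 genes on this scale. Klf6 alone made up 56.8% ± 2.97 of the summed per-length level of the 12 family rows in the libraries labelled KO and 57.4% ± 1.65 in those labelled WT, and Klf2 29.7% ± 4.03 and 29.1% ± 2.00.

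Klf13 came next at 35.0 ± 2.52 and 35.9 ± 0.883 CPM per kilobase under the KO and WT labels, with no overlap with its neighbours. Below it the order differed between the labels. In the libraries labelled KO Klf4 (21.1 ± 0.685) was above Klf10 (17.5 ± 1.37) without overlap, whereas in those labelled WT Klf10 (18.9 ± 1.33) came before Klf4 (14.6 ± 2.61) and the 2 ranges overlapped. Klf3, Klf16 and Klf11 followed in the KO-labelled libraries and Klf16, Klf3 and Klf11 in the WT-labelled ones. Klf3 and Klf16 overlapped under both labels, as did Klf10 and Klf3 under KO, and Klf4 and Klf16 and Klf3 and Klf11 under WT. Klf7 and Klf9 came next, and Klf12 (0.863 ± 0.179 and 1.62 ± 0.307 CPM per kilobase under the KO and WT labels) and Klf8 were last and overlapped each other.

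**Figure D3:**
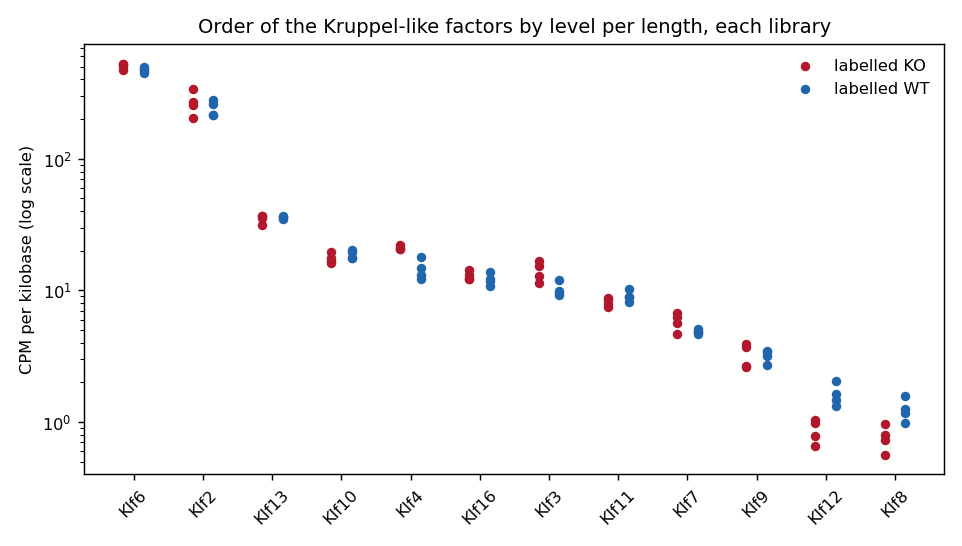
CPM per kilobase (vertical log axis) of the 12 family rows in each library, ordered by mean level, with libraries labelled KO in red on the left of each gene and those labelled WT in blue on the right. Klf6 and Klf2 stand far above the other factors under both labels, and Klf12 and Klf8 are lowest.

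The rises of Klf4 and Klf3 and the fall of Klf12 stood beside the higher myeloid marker level of the libraries labelled KO. For KO 1, KO 2, KO 4 and KO 5 the myeloid sums were 302, 538, 952 and 701 CPM. Klf4 was within 62.3 to 67.0 CPM over that range of myeloid level. Klf3 ranged more widely, from 58.8 to 86.0 CPM. Both factors were highest in KO 4 and then KO 5, the libraries with the most myeloid RNA, and both were lowest in KO 2. KO 4 and KO 5 also differ from the other libraries in a code described below, so this order does not separate myeloid level from code. Klf12 was at 5.92, 3.74, 4.46 and 5.67 CPM in KO 1, KO 2, KO 4 and KO 5, highest in KO 1. Under the WT label Klf3, Klf4 and Klf12 were each highest in WT 1, which had the most myeloid RNA there. The cause of these orders was not tested. Without KO 2 and KO 4 the log2 fold change was 0.52 for Klf4 (edgeR adjusted p = 0.0641), 0.47 for Klf3 (adjusted p = 0.0435) and -0.68 for Klf12 (adjusted p = 0.0597). That fit rests on KO 1 and KO 5 alone under the KO label. Their myeloid sums were still above those of every library labelled WT, so it does not separate label from myeloid level.

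With the mean log2 level of the myeloid markers as a term in the fit, which ran from 3.09 to 4.74 in the libraries labelled KO and from 0.309 to 1.14 in those labelled WT, 6 of all genes were called and none of the listed factors. The log2 fold change of Klf4 was then 0.01 ± 0.34, that of Klf3 -0.31 ± 0.35 and that of Klf12 -0.80 ± 0.64 (SE, edgeR adjusted p = 1.00 for each). Label and myeloid level do not overlap in these libraries and cannot be told apart by such a fit. A code in the sample descriptions, of unstated meaning, was 8 for KO 4 and KO 5 and 7 for the others. When it was added to the fit, Klf4 (0.50, adjusted p = 0.0705), Klf12 (-0.94, adjusted p = 0.0529) and Klf3 (0.26, adjusted p = 0.241) did not pass. That fit rests on KO 1 and KO 2 alone for the label difference.

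**Figure D4:**
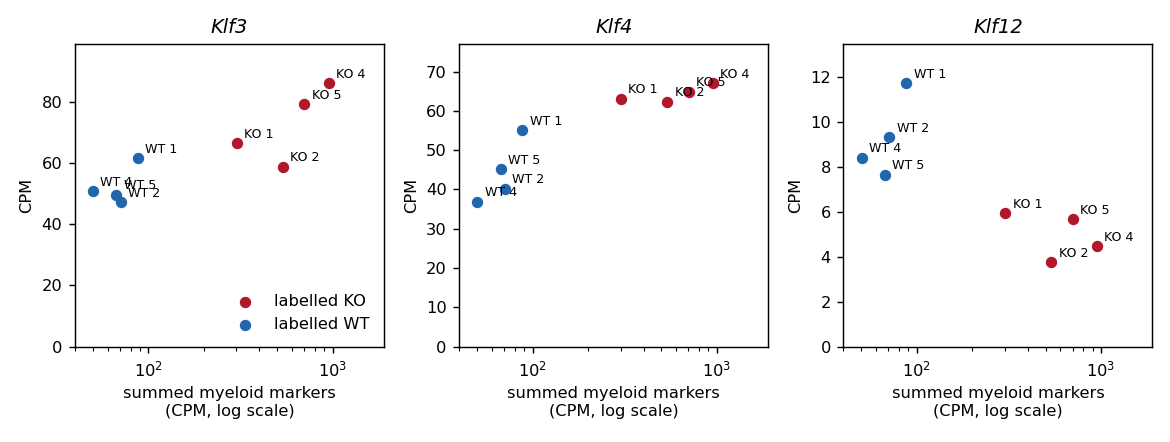
CPM of Klf3, Klf4 and Klf12 (vertical axes from 0) against the summed CPM of 19 myeloid markers (horizontal log axis) in each library, with libraries labelled KO in red and those labelled WT in blue. The labels do not overlap on the horizontal axis, at 302 to 952 CPM for KO and 50.2 to 87.9 CPM for WT.

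**Figure D5:**
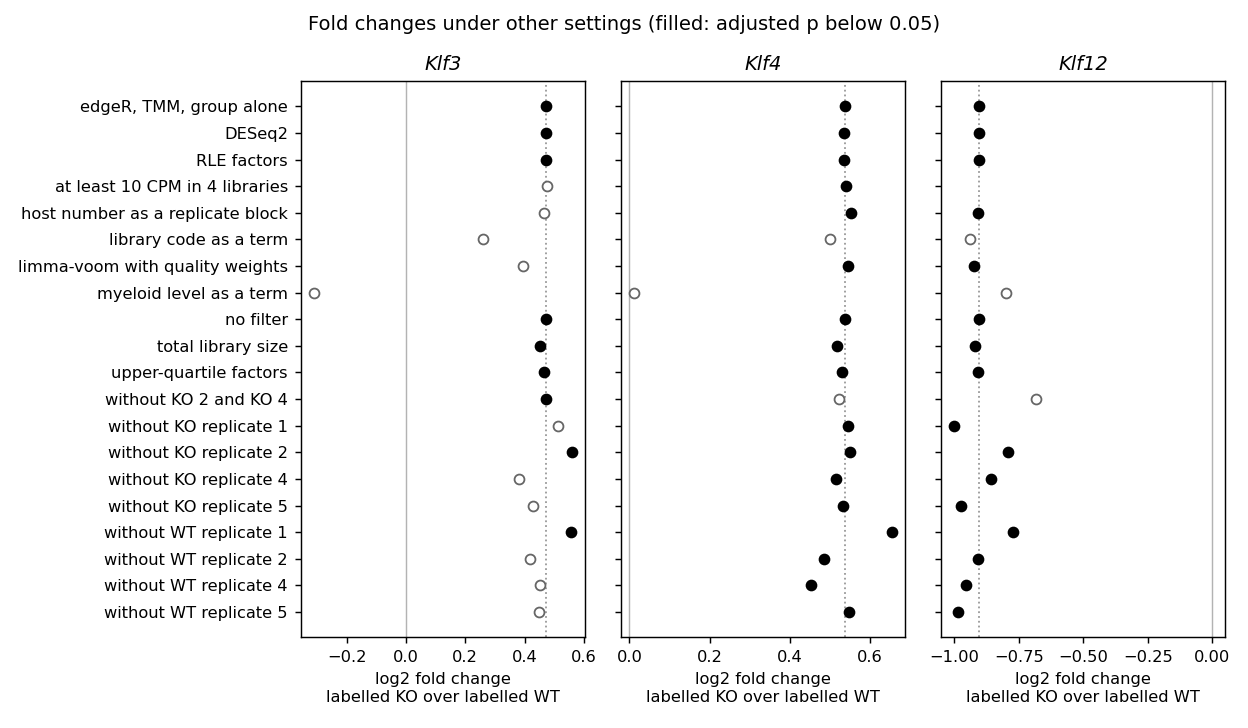
Log2 fold changes of Klf3, Klf4 and Klf12 (horizontal axes, labelled KO over labelled WT) under each setting (rows), filled where adjusted p was below 0.05. Klf4 and Klf12 stayed filled whichever library was left out, and Klf3 in 2 of those 8 fits.

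Genes around the family were looked at as lists, each to be read against the 10.04% of all genes called (6.20% higher and 3.84% lower). Of 11 measured trafficking genes linked to KLF2, 2 were called higher and 0 lower (median log2 fold change 0.0043), beside 6.20% and 3.84% of all genes. They were Ccr7, the lymph node homing receptor, at 14.1 ± 2.12 and 7.05 ± 1.79 CPM in libraries labelled KO and WT (1.00 ± 0.18, edgeR adjusted p = 0.00692), and Cd69, the activation marker that holds S1PR1 inside the cell, at 907 ± 81.9 and 731 ± 73.4 CPM (0.31 ± 0.09, adjusted p = 0.0490). Ccr7 lost its call without KO 2 and KO 4 (0.84, adjusted p = 0.0576) and Cd69 lost it with total library sizes (0.29, adjusted p = 0.0600) and when any of 6 of the 8 libraries was left out. S1pr1, the egress receptor that KLF2 is best known to induce, was at 128 ± 22.2 and 144 ± 26.1 CPM (-0.18, adjusted p = 0.525), and Plxnd1 (-0.38) and Cxcr3 (-0.24) did not pass.

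Of 13 measured cell cycle inhibitors and quiescence genes, 4 were called higher and 0 lower (median log2 fold change 0.25). They were Cdkn1a, the p21 gene that KLF4 is known to activate (0.50 ± 0.10, edgeR adjusted p = 0.00913), Tcf7, a factor of naive and memory T cells (0.61 ± 0.10, adjusted p = 0.00350), Slfn2, a quiescence factor (0.50 ± 0.07, adjusted p = 0.00172), and Tob1, an antiproliferative protein (0.42 ± 0.06, adjusted p = 0.00176). Cdkn1a was at 161 ± 24.0 CPM in the libraries labelled KO and 114 ± 6.38 CPM in those labelled WT, and Slfn2 at 523 ± 55.5 and 370.3 ± 13.3 CPM. The call of Cdkn1a was lost when the fit held the library code (0.37, adjusted p = 0.0619), and with the myeloid level as a term its log2 fold change was -0.30.

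Of 15 measured upstream regulators of Klf2 and Klf4, 2 were called higher and 1 lower (median log2 fold change 0.04), beside 6.20% and 3.84% of all genes. Pik3r1, the regulatory subunit of PI3-kinase, was at 184 ± 5.37 and 156 ± 7.99 CPM in libraries labelled KO and WT (0.24 ± 0.05, edgeR adjusted p = 0.00950), with adjusted p = 0.0673 without KO 2 and KO 4. Mef2c, a MEF2 factor, was rare at 1.42 ± 0.214 and 0.471 ± 0.252 CPM (1.58 ± 0.35, adjusted p = 0.0177). With 19, 16, 8 and 31 counts under the WT label, it can pass the expression filter through the libraries labelled KO alone. It lost its call without WT 1 or WT 2, where adjusted p reached 0.0556. The call of Mef2c was also lost with the host number as a block (adjusted p = 0.0507) and the library code as a term (0.0814). The same held without KO 2 and KO 4 (adjusted p = 0.107). With the myeloid level as a term its log2 fold change was 0.24 ± 1.09 (SE). Elf4, which activates Klf4 in mouse CD8 T cells, was at 411 ± 4.70 and 447 ± 5.38 CPM (-0.12 ± 0.03, adjusted p = 0.0498) and did not pass with any 1 of the libraries left out. Foxo1, the forkhead factor that induces Klf2, was at 262 ± 28.7 and 224 ± 12.5 CPM (0.23, adjusted p = 0.108) and passed when the fit held the library code (0.35, adjusted p = 0.00836) and with limma-voom (0.27, adjusted p = 0.0364).

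Of 12 TGF-beta receptors and SMAD genes, 1 was called higher and 1 lower (median log2 fold change 0.09), with the same shares over all genes. Tgif1, a SMAD corepressor, rose (0.45 ± 0.08, edgeR adjusted p = 0.00517) and Tgfbr3, the betaglycan coreceptor, fell (-0.69 ± 0.12, adjusted p = 0.00629), while Smad3 (0.11) and Skil (0.36) did not pass. Of 14 KLF corepressors and coactivators, Sin3b, a scaffold of the SIN3 complex, was the only call, at 117 ± 1.65 and 129 ± 2.79 CPM in libraries labelled KO and WT (-0.14 ± 0.03, adjusted p = 0.0297), and it passed in 3 of 8 fits with a library left out, with adjusted p up to 0.0908. Wdr5 (0.11), Fhl3 (0.17) and Rcor1 (-0.08) did not pass, and the median of the list was 0.0088. Without KO 2 and KO 4 the calls of Tgif1 (0.35, adjusted p = 0.0506) and Sin3b (-0.15, adjusted p = 0.111) were lost.

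edgeR called 0 of the 4 measured Sp factors, 0 of 8 glucocorticoid-responsive genes and 0 of 12 circadian genes, against 2, 2 and 0 at an unadjusted p below 0.05, a threshold that 23.5% of all genes passed. The medians of the log2 fold changes of these lists were -0.11, -0.04 and 0.01. The Sp factors share the zinc fingers of the family. Sp4 (-0.20) and Sp3 (-0.15) passed with DESeq2 (adjusted p = 0.0304 and 0.0438) and with limma-voom (0.0197 and 0.0235), and Sp1 (-0.06) and Sp2 (-0.06) passed with neither. Among glucocorticoid-responsive genes Zfp36 (0.36) and Tsc22d3 (0.21) passed with DESeq2 (adjusted p = 0.0224 and 0.0396), whereas Dusp1 (-0.28) and Fkbp5 (-0.20) did not. The circadian genes nearest to a call were Nr1d2 (0.25), Cry2 (0.16), Per3 (-0.29) and Per2 (0.30), which neither DESeq2 nor limma-voom called.

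The genes whose level followed each of the 3 called listed factors most closely were found by the root-mean-square difference of mean-centred log2 CPM over the 8 libraries, where genes below a mean of 3 on the log2 CPM scale were left out. For Klf4 they were Fes, a tyrosine kinase gene (difference 0.113 log2 units, its own log2 fold change 0.55), Cep85, a centrosome gene (0.115, 0.60), and Slc31a1, a copper transporter gene (0.119, 0.45). For Klf3 they were Zfp36, an mRNA decay factor gene (0.0989, 0.36), Msrb1, a methionine sulfoxide reductase gene (0.111, 0.39), and Cst3, the cystatin C gene (0.128, 0.37). For Klf12 they were Rarg, a retinoic acid receptor gene (0.186, -0.86), Ston2, an endocytosis adaptor gene (0.212, -0.68), and Slamf6, a lymphocyte receptor gene (0.214, -0.60). All 9 except Zfp36 (edgeR adjusted p = 0.0963) were called; genes chosen for a like pattern share the factor's difference by construction.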

How the data were processed

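A stranded TruSeq mRNA kit and NextSeq 500 single-end sequencing of 81 bases were used, per the labels' protocols. STAR alignment to mm10 is given by the submitters' processing notes. Not given in the sources used here were the version, the counting tool, the annotation and the strand setting. Reads of overlapping genes may therefore be shared. Annotated genes overlap Klf3, Klf7, Klf9, Klf10, Klf12 and Klf13. The authors deposited whole-number counts per gene, not normalized, and the deposited gene lengths in bases gave CPM per kilobase. All 11354 genes passed filterByExpr. Columns were mapped to samples by the sample descriptions, and groups came from the label that names the transferred cells.

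Counts were scaled by TMM factors and tested with estimateDisp, glmQLFit and glmQLFTest in edgeR 4.0.16 (R 4.3.3), KO label over WT label with no covariate, adjusted over all genes. The SE is the absolute log2 fold change over the square root of F, and 95% intervals use its t distribution. The common biological coefficient of variation was 0.116. On simulated data over 11354 genes it recovered 64 of 100 genes changed by log2 0.5 and 89 of 100 changed by log2 1, with 4 false calls. The second number missed a first limit of 90, which was then lowered to 80. Marker sums had an exact permutation test, two-sided (scipy 1.17.1). Log2 CPM had a prior count of 2. limma 3.58.1, DESeq2 1.42.0, Python 3.11.15, pandas 2.3.3, numpy 2.4.6 and matplotlib 3.10.9 were also used. Positions, promoter windows and overlaps came from RefSeq tables (GRCm38.p6, the assembly of mm10) by Entrez identifier, with a promoter entry for 10 of the 12 family rows. Klf10 and Klf16 had none.

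The members and lists were chosen with earlier results of these data known. Named genes are the family, Nlrp6, S1pr1, Ccr7, Foxo1 and Cd69, the 4 members of each pathway list with the smallest p, and the 3 genes most like each called listed factor. A further gene under that rule is not reported here. Ctbp1 and Ctbp2, the closest genes of the uncalled factors, and the motifs searched fall outside that rule and were picked after values were seen. None of the 8 B and plasma cell markers looked up was among the genes tested. Alternatives were RLE, upper-quartile and no factors, other filters, DESeq2, limma-voom, the host number as a block, the library code or myeloid level as a term, and leaving out libraries. Wherever limma-voom is named, it was run with library quality weights.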

Additional observations from a re-analysis of the deposited data

Results flagged for a closer look

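In 128 groups of 4 libraries checked (the family, the other named genes and the marker sums), 8 held a library far from the other 3, where chance gives about 1 in 20. For Klf13, WT 4 was low at 228 CPM, against 239 to 240.4 CPM in the other libraries labelled WT. It was the 1 family value among them. Sp3 was high in KO 4 at 286 CPM, Slfn2 in KO 4 at 606 CPM and Pik3r1 in KO 2 at 192 CPM. Sp2 was low in KO 5 at 67.2 CPM, Wdr5 in KO 4 at 51.4 CPM and Per3 in WT 1 at 3.38 CPM. The summed level of the natural killer and innate lymphoid list was high in KO 4 at 118 CPM, against 70.8 to 75.5 CPM in the other libraries labelled KO.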

How the results depend on the processing

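RLE, upper-quartile and no factors and DESeq2 each called the same 3 listed factors as the report. The fit with no filter is the same fit as the report's, because all 11354 genes pass the filter, and so is no separate check. limma-voom with quality weights called 2, without Klf3 (0.39, adjusted p = 0.0549). With at least 10 CPM in 4 libraries the calls over all genes were 584 (313 higher, 271 lower) and 1 listed factor, Klf4, passed, while the rarer Klf12 is not tested there. With the library code as a term there were 745 calls (249 lower) and 0 listed factors. With the myeloid level as a term there were 6 calls (5 higher, 1 lower) and 0 listed factors. Without KO 2 and KO 4, 1 listed factor passed. Leaving out each library in turn gave 804 to 1197 calls over all genes, 276 to 509 of them lower (276 without KO 1 and 277 without WT 1), and 2 to 3 listed factors called (without KO 4 they were Klf4, Klf12 and Klf7). With the host number as a replicate block there were 1020 calls, 896 of them shared with the 1140 of the report, and 2 listed factors (Klf4 and Klf12) passed, as Klf3 had adjusted p = 0.0609. The labels do not say that 1 host received both kinds of cells, so the numbers were not taken as pairs in the main fit. Deviations of libraries with the same number correlated at -0.06, 0.18, -0.14 and 0.26, beside -0.26 to 0.20 for libraries with different numbers. So few values cannot settle whether the libraries were paired.

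Signs turned as follows. The log2 fold change with the library code as a term was -0.075 for Klf2 and 0.0079 for Klf13. Without KO 2 and KO 4 it was -0.0102 for Klf9 and 0.0057 for S1pr1. With 1 library left out it ranged from -0.0898 to 0.103 for Klf9 and from -0.0644 to 0.0126 for Klf13. With the myeloid level as a term it was -0.43 for Klf2, -0.31 for Klf3, -0.0159 for Klf6, 0.0446 for Klf13, -0.27 for Klf16, -0.23 for Ccr7, 0.13 for Sp1, 0.28 for Cxcr3, -0.30 for Cdkn1a, 0.0427 for Tgfbr3, -0.0034 for Skil, -0.11 for Zfp36, -0.36 for Cry2, -0.35 for Per2, -0.25 for Msrb1, -0.15 for Cst3 and -0.27 for Slc31a1. The cause of these turns was not tested.

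With 1 library left out, the ratio of marker sums (KO label over WT label) ranged from 7.44 to 10.6 for myeloid cells, 6.85 to 9.49 for the dendritic and MHC class II list, 3.94 to 5.06 for the neutrophil list, 1.65 to 2.22 for the natural killer and innate lymphoid list, 2.13 to 3.84 for the CD8 pair, 0.969 to 1.12 for epithelium, 0.832 to 1.17 for fibroblasts and 0.817 to 1.02 for red cells. With 3 libraries against 4 the smallest exact permutation p is 0.0571, so none could pass. Klf8 had 106 to 303 counts a library and Klf12 147 to 478, and how far depth limits their precision was not tested.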

Other observations

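Factors that did not pass the test also had genes of like pattern, measured as in the report. Klf7 was closest to Dst (root-mean-square difference 0.0543 log2 units), a cytoskeletal linker gene, and to Ctsw (0.0878), a cathepsin of cytotoxic lymphocytes, both of which were called higher in the libraries labelled KO (log2 fold change 0.34 and 0.37, edgeR adjusted p = 0.0457 and 0.0149). The pattern of Axin2 (0.112), a Wnt target gene, was near that of Klf2. Klf10 was closest to Eif4enif1 (0.0414) and Klf6 to Atpaf2 (0.0288), and Klf13 to Srrm2 (0.0279). These pairs share libraries and depth, and genes chosen for a like pattern share the factor's difference by construction. Genes that vary little between libraries also lie close on this measure, whether or not they move together. The values are descriptions.

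Among markers of other cells, the summed level of dendritic and MHC class II genes was 891 ± 361 CPM in the libraries labelled KO and 109 ± 23.3 CPM in those labelled WT, that of genes listed for neutrophils 55.9 ± 20.3 and 12.7 ± 3.50 CPM, and that of genes listed for natural killer and innate lymphoid cells 84.5 ± 22.4 and 44.6 ± 15.5 CPM (for each, exact permutation p = 0.0286, adjusted to 0.0714). In the first list the calls were MHC class II genes and Cd74, while Zbtb46 (log2 fold change 0.10, edgeR adjusted p = 0.833) and Itgax (0.45, adjusted p = 0.405) did not pass. In the neutrophil list 7 of 12 genes were measured and 5 were called higher, beside 6.20% of all genes. Its granule genes Ngp (1.58, edgeR adjusted p = 0.0986) and Ltf (1.44, adjusted p = 0.108) did not pass. In the last list the calls were Tyrobp (18.7 ± 9.11 and 1.83 ± 0.729 CPM) and Fcer1g (19.8 ± 9.47 and 1.57 ± 0.408 CPM), which myeloid cells also express. Klrb1c (-0.02), Klrb1b (-0.41), Il1rl1 (0.0080) and Kit (0.91) did not pass. The choice of genes named from these lists was made with their values in view. Genes of endothelium, a cell type known to express Klf2 and Klf4, summed to 96.1 ± 14.8 and 73.0 ± 11.5 CPM (exact permutation p = 0.0571). Most of this sum was Pecam1, at 71.4 ± 8.26 and 57.7 ± 7.45 CPM. Of the 7 measured endothelial genes, 0 were called higher and 0 lower, beside 6.20% and 3.84% of all genes. Fibroblast genes summed to 85.3 ± 44.6 and 84.4 ± 31.1 CPM (exact permutation p = 1.00), epithelial genes to 36.4 ± 2.31 and 35.5 ± 6.31 CPM (0.857) and red cell genes to 17.3 ± 4.59 and 19.2 ± 5.17 CPM (0.571). Cd8a was at 19.0 ± 14.7 and 4.10 ± 1.71 CPM (log2 fold change 2.21, edgeR adjusted p = 0.0280) and Cd8b1 at 1.95 ± 0.893 and 2.39 ± 1.43 CPM (-0.29, adjusted p = 0.794). The sum of this pair was 3.23-fold apart (exact permutation p = 0.0571) and 2.13-fold without KO 2. The part of these cell types in the levels of the Kruppel-like factors was not tested.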
